A study of Mus musculus with 40 samples.

Results

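The 10 genes of 4 oocyte-specific multicopy families followed through the oocyte libraries were the oogenesins Oog1, Oog2, Oog3 and Oog4, the oligoadenylate synthetase 1 copies Oas1c, Oas1d and Oas1e, the oocyte-secreted protein gene Oosp1, and the oocyte maturation genes Omt2a and Omt2b. They were chosen by name, and each was read from the RNA locus that overlapped the annotated gene on its own strand. All 10 of 10 genes were found, each at 1 locus, among 38540 loci in the RNA table, of which 15023 carry a gene name from their own strand. All but 1, that is 9 genes, had a mean of at least 10 RPM (reads scaled to 1000000 per library) over the 11 RNA libraries, and Oog1, with 7 to 16 reads in a library, was the exception.

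The oocytes were fully grown germinal-vesicle oocytes, still before meiotic maturation, from mice aged 22 to 25 days, pooled at 100 to 200 oocytes per sample. RNA was measured in 3 control libraries whose titles begin with GKAO, 3 G9a cKO libraries of the same GKAO series, 3 control libraries whose titles begin with GKAQ, and 2 G9a-Glp cDKO libraries (below, cDKO) of the GKAQ series. Histone H3 lysine 9 dimethylation (H3K9me2) was measured in 2 libraries each of control, G9a cKO and cDKO oocytes. The mark is placed by a pair of enzymes, G9A (gene Ehmt2) and GLP (gene Ehmt1). cKO and cDKO stand for conditional single and double deletion. The Cre driver and the alleles that the control mice carried are not given in the sources used here. Neither is it given which animals gave each pool, so tests compare pools and not animals. Because each mutant had its own controls, G9a cKO was compared with the GKAO controls and cDKO with the GKAQ controls.

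Growing mouse oocytes store large amounts of RNA from genes that exist as recently expanded clusters of near-identical copies. Oogenesins are leucine-rich proteins of the PRAME-like family, most of whose copies lie in arrays and are used in germ cells and early embryos. Oligoadenylate synthetases are known as interferon-induced sensors of double-stranded RNA that activate RNase L, but in the mouse several Oas1 copies, Oas1d among them, are used in the ovary and lack that catalytic activity. Oosp1 encodes a small protein secreted by oocytes, and Omt2a and Omt2b are a pair of oocyte transcripts of less certain function.

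The 250 bases before the annotated start of the 4 oogenesins are shown because the copies share words of sequence there, within reach of the start of transcription. They come from RefSeq (GRCm38.p6), which had an entry for 8 of the 10 genes (all but Oas1d and Oas1e), and run 5′ to 3′ on the strand of the gene: chr12:87602415-87602664 on the plus strand for Oog1, chr4:144190467-144190716 on the plus strand for Oog2, chr4:144162652-144162901 on the minus strand for Oog3 and chr4:143450325-143450574 on the minus strand for Oog4. Capitals mark the 4 words of at least 9 bases that all 4 windows contain.
Oog1: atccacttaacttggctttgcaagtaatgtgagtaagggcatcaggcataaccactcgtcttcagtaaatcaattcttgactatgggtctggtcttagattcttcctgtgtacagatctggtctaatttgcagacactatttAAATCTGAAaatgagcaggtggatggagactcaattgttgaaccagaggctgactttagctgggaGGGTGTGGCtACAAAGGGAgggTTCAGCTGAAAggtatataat
Oog2: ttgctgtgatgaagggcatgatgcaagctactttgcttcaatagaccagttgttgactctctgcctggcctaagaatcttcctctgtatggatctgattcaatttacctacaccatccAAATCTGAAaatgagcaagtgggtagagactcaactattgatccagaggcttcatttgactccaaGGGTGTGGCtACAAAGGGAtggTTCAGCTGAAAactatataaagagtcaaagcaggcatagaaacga
Oog3: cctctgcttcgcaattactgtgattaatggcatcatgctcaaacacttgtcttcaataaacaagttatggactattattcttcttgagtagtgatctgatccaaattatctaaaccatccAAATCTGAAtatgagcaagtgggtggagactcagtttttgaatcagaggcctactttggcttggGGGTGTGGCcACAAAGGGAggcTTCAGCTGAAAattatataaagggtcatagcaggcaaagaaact
Oog4: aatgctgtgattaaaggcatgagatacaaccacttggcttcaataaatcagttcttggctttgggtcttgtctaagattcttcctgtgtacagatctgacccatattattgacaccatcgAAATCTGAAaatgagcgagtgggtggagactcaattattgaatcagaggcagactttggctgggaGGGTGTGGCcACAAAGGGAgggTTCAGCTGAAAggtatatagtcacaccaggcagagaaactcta

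Aligned end to end, the 4 oogenesin windows were 63.9% (Oog1 and Oog2) to 76.9% (Oog2 and Oog4) identical, against 43.5% to 50.7% for every pair that involved Oas1c, Oosp1, Omt2a or Omt2b. The Omt2a and Omt2b windows, of a gene pair with similar names, were 46.4% identical. In order along the oogenesin windows the shared words were AAATCTGAA, GGGTGTGGC, ACAAAGGGA and TTCAGCTGAAA. Counting both strands, they occur in 0.374%, 1.21%, 0.42% and 0.0426% of 32851 promoter windows of the same length. The longest word began 21 bases before the start in Oog1, 45 in Oog2, 44 in Oog3 and 43 in Oog4. It contains the E-box CAGCTG, which is found in 13% of all windows. TATATA followed it in all 4 and is found in 5.25% of all windows. None of the 4 words was in the windows of the other 4 genes. A match here is a run of letters and not a measured binding site. The Oog2 window lies within its measured RNA locus, which begins at base 144183291, upstream of the RefSeq start at 144190717, and the Oog3 and Oog4 windows overlap theirs in part.

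Facts of the whole series that touch these genes are as follows. RNA libraries were scaled by totals of 1458868 to 2399680 reads. Ehmt1 had 144 to 173 reads in GKAQ controls and 31 to 36 in cDKO. Ehmt2 had 9 to 13 reads in GKAO controls and 2 to 11 in G9a cKO, so the G9a deletion was not resolved in every library at this depth. Of 14 oocyte markers 13 were measured, and their summed RNA ranged from 15413 to 18726 RPM over all libraries. Of 15 granulosa and cumulus markers 14 were measured and 2 had at least 10 RPM. None of the 14 was at 0 in all libraries. In cDKO 2 of them were called higher, beside 4.32% of all loci: Fshr (16 and 9 reads) and Inha (12 and 17 reads), both with a mean under 10 RPM. In G9a cKO 0 were called higher. The sum of the 14 was 187 to 197 RPM in GKAO controls, 138 to 163 in G9a cKO, 135 to 160 in GKAQ controls and 117 to 145 in cDKO. Most of this sum was Nr5a2 and Cyp19a1, with means of 122 and 41.3 RPM in GKAO controls. Measured blood markers had no reads in any library. The part of these differences in the results below was not tested.

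**Figure D1:**
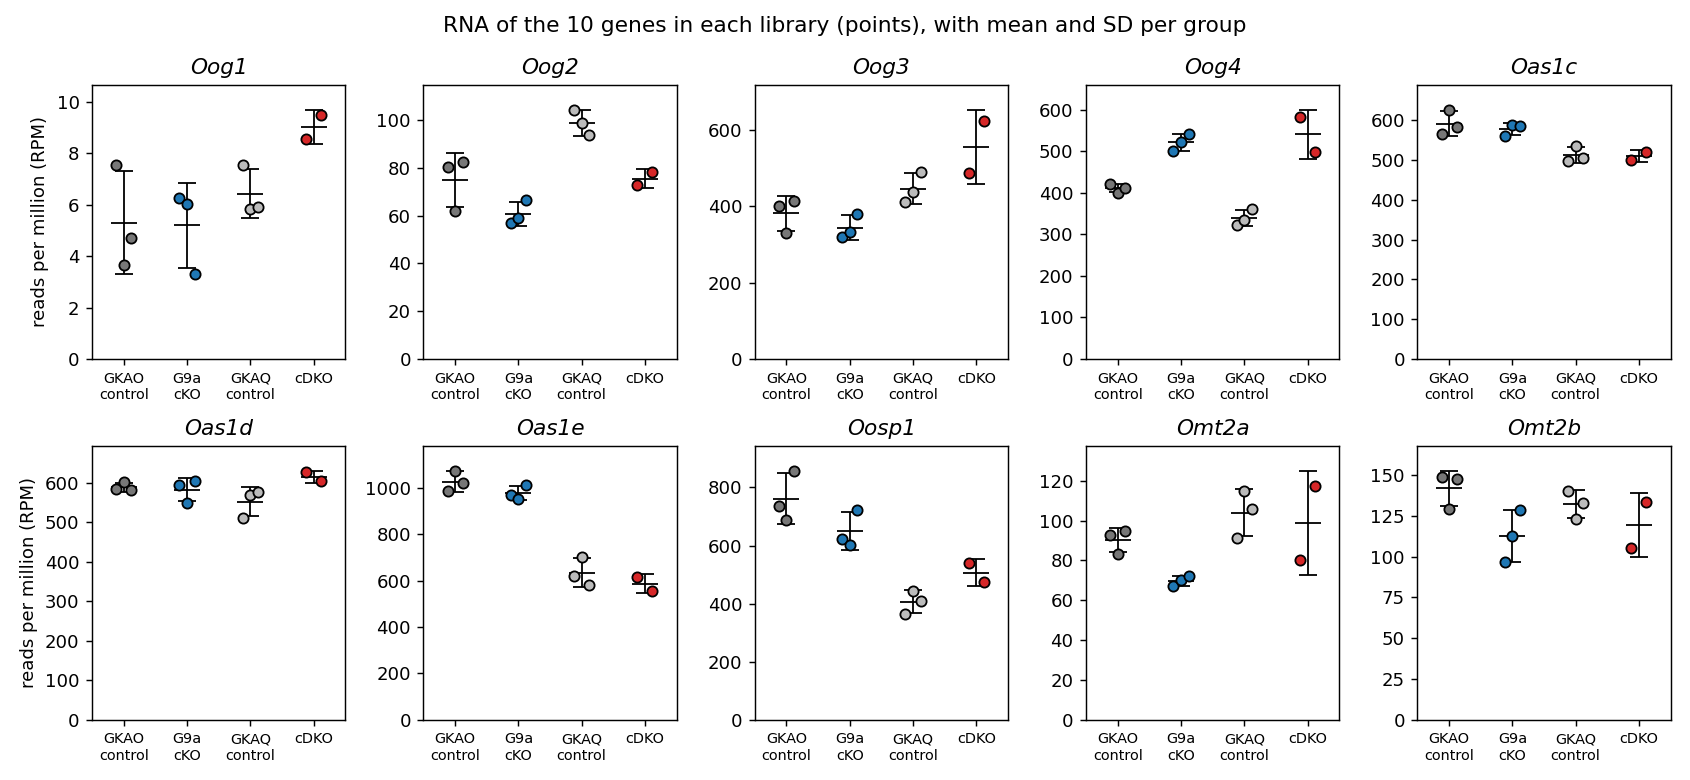
RNA of each of the 10 genes (y axis, RPM, from 0) in the 4 groups (x axis). Points are libraries, and the horizontal mark and bar are the group mean and SD. Oog4 is above its own controls in both mutants, and Oosp1 and Oas1e are lower in GKAQ controls than in GKAO controls.

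Oog4 was the member with the clearest change: it rose in both mutants. In GKAO controls it measured 420, 400 and 411 RPM, and in G9a cKO 501, 522 and 542 RPM. Every G9a cKO library was above every GKAO control. The difference was 0.34 on the log2 scale (SE 0.08, 3 against 3 libraries), or 1.27-fold, with an adjusted p of 0.00224. All adjusted p-values for RNA are from limma over all 38540 loci, and a gene is called where its value is under 0.05. With the trend and robust settings used, the spread given to a member comes almost wholly from loci of like level. Its own pools carry almost no weight in it. SEs and p-values therefore do not measure the spread of a gene between its own pools. With neither setting, members called numbered 0 in G9a cKO and 1 in cDKO (Oog4). In GKAQ controls Oog4 measured 322, 335 and 360 RPM, and in cDKO 582 and 499 RPM. Again both mutant libraries lay above all 3 controls, by 0.67 on the log2 scale (SE 0.09, 1.59-fold, adjusted p = 2.27e-11). The rise in cDKO was 0.32 larger than in G9a cKO, a difference that did not pass the test (adjusted p = 0.169). Its call in G9a cKO was lost where limma's variance moderation was run with neither trend nor robust fitting (adjusted p = 0.279, range over 14 alternatives 7.35e-06 to 0.279). In these pools a change in the number of cells that carry a transcript and a change in RNA per cell cannot be told apart.

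Oog3 was called higher in cDKO and was not called in G9a cKO. It measured 401, 329 and 415 RPM in GKAO controls and 319, 333 and 381 RPM in G9a cKO, and these ranges overlap (log2 difference -0.15, SE 0.08, adjusted p = 0.23). In GKAQ controls it measured 413, 437 and 490 RPM, and in cDKO 488 and 625 RPM. The lower cDKO library lies just under the highest control. The fitted rise was 0.31 (SE 0.09, adjusted p = 0.0159), and the cDKO effect exceeded the G9a cKO effect by 0.45 (SE 0.12, adjusted p = 0.0258). Both calls depend on single libraries and on the fit. The cDKO rise was 0.13 without cDKO replicate 2 (adjusted p = 0.804), 0.25 without GKAQ control replicate 1 (adjusted p = 0.134) and 0.30 without GKAQ control replicate 2 (adjusted p = 0.0774). It was also not called after centring on detected loci (0.21, adjusted p = 0.182), with precision weights (adjusted p = 0.202) and with neither trend nor robust fitting (adjusted p = 0.575), and was 0.52 and called with the title number as a block. Its adjusted p ranged from 0.000813 to 0.804 over 13 alternatives. The difference of effects was 0.28 without cDKO replicate 2 (adjusted p = 0.358, range over 16 alternatives 0.00139 to 0.358), and was also not called without GKAO control replicate 1 or 3, G9a cKO replicate 1 or 2, or GKAQ control replicate 2.

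Oog2 had lower values in both mutants, without a call. It measured 80.2, 61.8 and 82.6 RPM in GKAO controls and 56.8, 59.0 and 66.4 RPM in G9a cKO, where 1 control lies within the mutant range. GKAQ controls had 104, 98.8 and 93.7 RPM and cDKO had 72.9 and 78.3 RPM, with no overlap. The log2 differences were -0.29 (SE 0.16, adjusted p = 0.23) and -0.39 (SE 0.18, adjusted p = 0.222). Oog1 was close to the limit of the depth, with 11, 7 and 8 reads in GKAO controls, 15, 11 and 7 in G9a cKO, 12, 14 and 12 in GKAQ controls and 15 and 16 in cDKO. No difference of Oog1 was detectable at these counts (log2 differences -0.02, SE 0.46, and 0.50, SE 0.51).

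The make-up of the oogenesin reads was described by the share that each copy held. Oog4 held 47.2% ± 2.79 (SD, n = 3) of the family's reads in GKAO controls and 56.0% ± 1.24 (SD, n = 3) in G9a cKO. It held 38.1% ± 0.149 (SD, n = 3) in GKAQ controls and 45.9% ± 6.63 (SD, n = 2) in cDKO. Oog2 held 8.55% ± 0.677 (SD, n = 3) in GKAO controls, 6.51% ± 0.152 (SD, n = 3) in G9a cKO, 11.1% ± 1.23 (SD, n = 3) in GKAQ controls and 6.40% ± 0.0924 (SD, n = 2) in cDKO. The mutant libraries of either series gave more of the family's reads to Oog4 and fewer to Oog2 than any control of that series. The family as a whole summed to 873 ± 67.4 RPM (SD, n = 3) in GKAO controls, 932 ± 55.9 (SD, n = 3) in G9a cKO, 891 ± 53.1 (SD, n = 3) in GKAQ controls and 1181 ± 42.3 (SD, n = 2) in cDKO. These shares and sums are descriptions with no test. Shares are of reads and not of molecules, as the loci differ in length, and how reads that match several copies were assigned is not given in the sources used here, so values of single copies are uncertain.

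**Figure D2:**
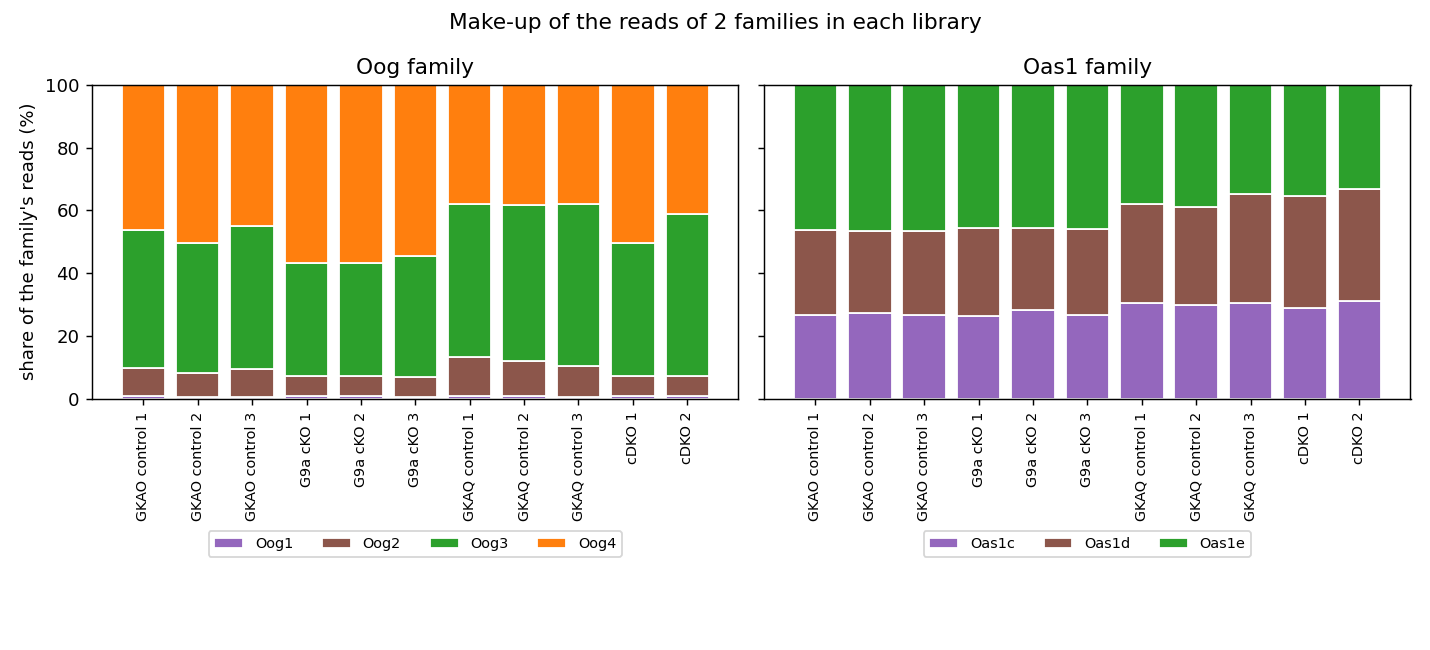
Share of the family's reads (y axis, percent) held by each copy in each of the 11 RNA libraries (x axis), for the 4 oogenesins and the 3 Oas1 copies. Oog4 takes a larger share in G9a cKO and cDKO than in the matching controls, while the Oas1 make-up differs mainly between the GKAO and GKAQ libraries.

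The 3 Oas1 copies were abundant and showed no called change in either mutant. Oas1e measured 984, 1074 and 1020 RPM in GKAO controls and 967, 953 and 1012 RPM in G9a cKO. In GKAQ controls it measured 619, 701 and 579 RPM, and in cDKO 614 and 557 RPM. Mutants and matching controls overlap in both series, while all GKAQ libraries lie far below all GKAO libraries. G9a cKO differed from its controls by -0.07 (SE 0.06, adjusted p = 0.433). For cDKO the value was -0.11 (SE 0.07, adjusted p = 0.538). With the number in the sample title added to the fit as a block, the cDKO difference was -0.33 and passed the test (adjusted p = 0.0396, range over 13 alternatives 0.0396 to 0.936).

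Oas1c, the neighbour of Oas1e on chromosome 5, measured 565, 626 and 584 RPM in GKAO controls and 562, 587 and 586 RPM in G9a cKO. It measured 498, 536 and 504 RPM in GKAQ controls and 500 and 521 RPM in cDKO. The groups overlap in both series, with log2 differences of -0.03 (SE 0.07) and -0.01 (SE 0.08). Oas1d, the copy best known for its ovarian use, measured 583, 602 and 580 RPM in GKAO controls and 595, 548 and 603 RPM in G9a cKO (log2 difference -0.02, SE 0.07). In GKAQ controls it measured 510, 569 and 576 RPM, and in cDKO 626 and 604 RPM. Both cDKO libraries lie above the 3 controls, yet the difference of 0.16 (SE 0.08) did not pass the test (adjusted p = 0.298). Summed over the 3 copies, Oas1 RNA was 2206 ± 87.0 RPM (SD, n = 3) in GKAO controls, 2137 ± 57.8 (SD, n = 3) in G9a cKO, 1697 ± 95.4 (SD, n = 3) in GKAQ controls and 1711 ± 41.2 (SD, n = 2) in cDKO.

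Oosp1 was higher in cDKO than in its controls and had no call in G9a cKO. It measured 736, 689 and 858 RPM in GKAO controls and 623, 601 and 723 RPM in G9a cKO, overlapping only between the highest mutant and the lowest control (log2 difference -0.23, SE 0.07, adjusted p = 0.0739). In GKAQ controls it measured 365, 444 and 410 RPM, and in cDKO 539 and 474 RPM. Both cDKO libraries lie above all 3 GKAQ controls and below every G9a cKO and GKAO control library. The rise was 0.32 (SE 0.08, 1.25-fold, adjusted p = 0.00277). The cDKO effect exceeded that of G9a cKO by 0.55 (SE 0.11, adjusted p = 0.000239). That call was lost with precision weights (adjusted p = 0.211) and with neither trend nor robust fitting (adjusted p = 0.232).

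The 2 mutant comparisons of Oosp1 depend on the controls. Against all 6 controls pooled, the cDKO value was -0.13 and the G9a cKO value 0.22, so both turned their direction. The cDKO call was lost without GKAQ control replicate 1 (0.24, adjusted p = 0.088) and without cDKO replicate 1 (0.23, adjusted p = 0.202), and with the title number as a block (0.093, adjusted p = 0.581). It was also lost after centring on detected loci (0.22, adjusted p = 0.0761), with precision weights (0.30, adjusted p = 0.277) and with neither trend nor robust fitting (adjusted p = 0.499). Over 13 alternatives its adjusted p ranged from 0.000975 to 0.885. In G9a cKO the lower level passed the test with the title number as a block (-0.29, adjusted p = 0.00726), without G9a cKO replicate 3 (-0.31, adjusted p = 0.0202) and without GKAO control replicate 2 (-0.30, adjusted p = 0.0272). It also passed after centring on detected loci (-0.25, adjusted p = 0.0356) and in a fit of only the groups compared (adjusted p = 0.0396), with a range of 0.00726 to 0.613 over 14 alternatives.

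The Omt2 pair had lower values in G9a cKO, without a call. Omt2a measured 92.5, 83.3 and 94.9 RPM in GKAO controls and 67.2, 69.9 and 72.0 RPM in G9a cKO. Omt2b measured 149, 129 and 148 RPM in GKAO controls and 96.9, 113 and 129 RPM in G9a cKO. For both genes every mutant library was below every control. The log2 differences were -0.37 (SE 0.15, adjusted p = 0.23) for Omt2a and -0.34 (SE 0.13, adjusted p = 0.21) for Omt2b. The 0.23 is shared with loci without a read in any library. Unadjusted p-values (limma) were 0.0135 for Omt2a and 0.00902 for Omt2b. In the GKAQ series Omt2a measured 91.1, 114.6 and 106 RPM in controls and 80.3 and 117 RPM in cDKO, and Omt2b measured 140, 123 and 133 RPM in controls and 105 and 133 RPM in cDKO. The 2 cDKO libraries differ from each other by more than the controls do, and the groups overlap (log2 differences -0.09, SE 0.17, and -0.16, SE 0.15).

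Read as a set, 1 of the 10 genes was called in G9a cKO (Oog4, higher), where 1.79% of all loci were called, and 5.22% of the 9091 loci with a mean of at least 10 RPM. In cDKO 3 of the 10 were called, all higher (Oog4, Oog3 and Oosp1), where 6.34% of all loci and 15.8% of those at 10 RPM or more were called. The difference between the effects was called for 2 of the 10 (Oosp1 and Oog3), both higher in cDKO, beside 1.08% of all loci (0.685% higher) and 3.34% of those at 10 RPM or more. Groups did not overlap for 3 genes in G9a cKO (1 above and 2 below the controls) and for 5 in cDKO (4 above and 1 below), beside 25.2% and 48.6% of loci at 10 RPM or more. The 5 include Oog1, above its controls, which is under 10 RPM and so outside the set of those percentages. The median log2 difference of the 9 genes at 10 RPM or more was -0.15 in G9a cKO and -0.0056 in cDKO, beside 0.0077 and 0.05 over all loci at that level. With Oog1 included, the medians of the 10 were -0.11 and 0.077. These counts are too small to set the families apart from other loci of that level.

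**Figure D3:**
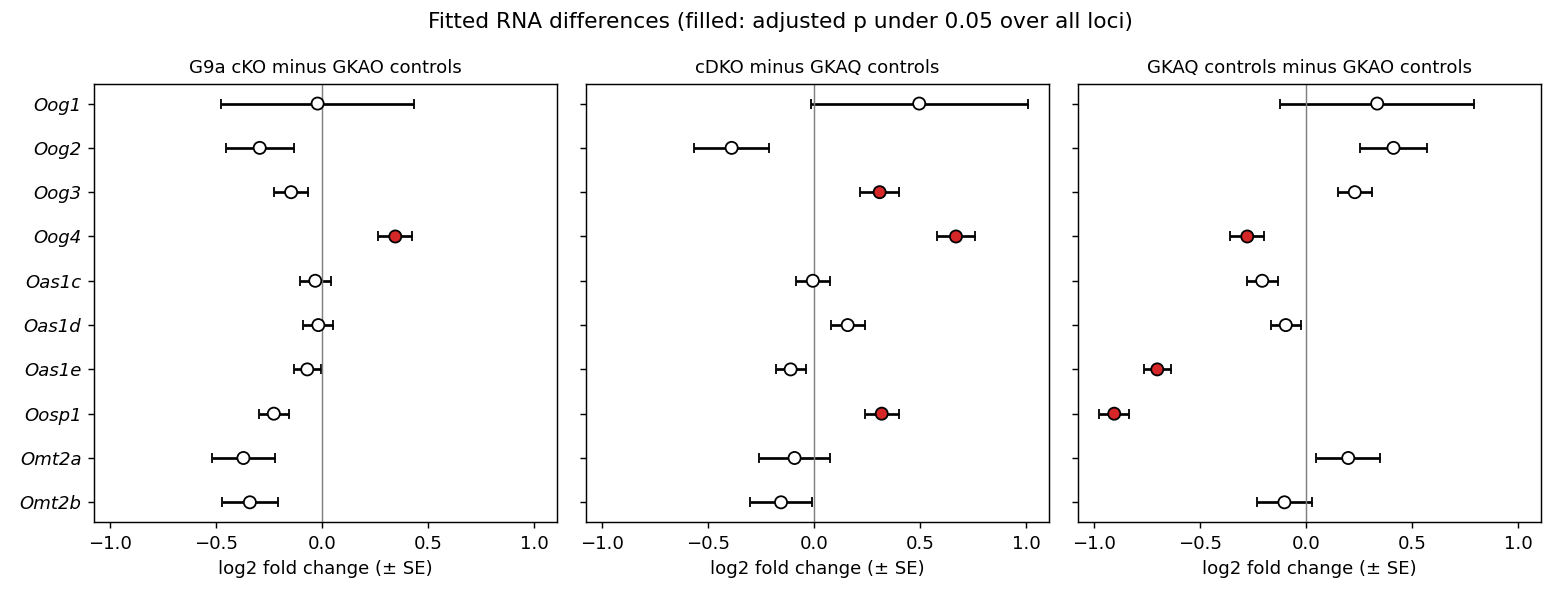
Fitted log2 fold change (x axis) with its SE (bars) for each of the 10 genes (y axis) in the 3 pairwise comparisons. Filled points have an adjusted p under 0.05, which Oog4 has in all 3 panels, with a positive value in each mutant and a negative one between the controls.

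For Oosp1 and Oas1e the distance between the control groups was larger than that of either mutant from its own controls. Oosp1 was 1.87-fold lower in GKAQ than in GKAO controls (log2 difference -0.90, SE 0.07, adjusted p = 6.2e-33). Oas1e was 1.62-fold lower (-0.70, SE 0.06, adjusted p = 1.34e-25). Oog4 was also lower (-0.28, SE 0.08, adjusted p = 0.0179), a call that was lost without GKAO control replicate 1 (-0.26, adjusted p = 0.0905), GKAQ control replicate 1 (-0.24, adjusted p = 0.0715) or GKAQ control replicate 2 (-0.27, adjusted p = 0.0903), with a range of 0.0141 to 0.466 over 12 alternatives. With neither trend nor robust fitting none of the 3 calls held (adjusted p = 0.0577 for Oosp1, 0.0774 for Oas1e and 0.466 for Oog4). The other 7 genes were not called, among them Oog2 (0.41, SE 0.16, adjusted p = 0.164) and Oas1c (-0.21, SE 0.07, adjusted p = 0.0973). Thus 3 of the 10 were called, all lower in GKAQ, where 3.87% of all loci (1.91% lower) and 14.8% of those at 10 RPM or more were called. The 2 control groups did not overlap for 6 of the 10 genes (1 above and 5 below), beside 36.9% of loci at 10 RPM or more. Strain, alleles carried and library series cannot be told apart in this comparison.

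Relatives of the oogenesins were called higher in both mutants. Of 33 PRAME-like genes listed, 22 were measured and 13 had a mean of at least 10 RPM. In G9a cKO 2 of the 22 were called higher and 0 lower, and in cDKO 9 were called higher and 0 lower. Beside these, 1.05% and 4.32% of all loci were called higher, and 5.22% and 15.8% of loci at 10 RPM or more were called in either direction. At an unadjusted p under 0.05 (limma) 4 and 12 were higher and 0 lower. The median log2 difference of the 13 was 0.17 in G9a cKO and 0.48 in cDKO.

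Pramef17, an oogenesin-like gene in the same region of chromosome 4 as Oog2, Oog3 and Oog4, measured 8.2, 4.2 and 2.9 RPM in GKAO controls and 22.1, 22.4 and 13.7 RPM in G9a cKO. It measured 5.7, 5.4 and 9.4 RPM in GKAQ controls and 32.5 and 41.5 RPM in cDKO. No mutant library overlaps its controls, and the log2 differences were 2.02 (SE 0.36, adjusted p = 5.7e-06) and 2.48 (SE 0.40, adjusted p = 8.85e-08). The G9a cKO call of Pramef17 was lost with neither trend nor robust fitting (adjusted p = 0.0675). AA792892, a PRAME-like copy on chromosome 5, measured 86.4, 74.4 and 64.5 RPM in GKAO controls and 111, 98.9 and 108 RPM in G9a cKO (0.51, SE 0.15, adjusted p = 0.0456). That call was lost without any of GKAO control replicates 2 and 3 and the 3 G9a cKO replicates (0.40 to 0.56, adjusted p 0.0879 to 0.301), and under 5 of the other alternatives. In cDKO it measured 119 and 177 RPM against 67.2, 52.5 and 58.7 RPM in GKAQ controls (1.29, SE 0.17, adjusted p = 8.1e-12).

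C87499, another PRAME-like gene of chromosome 4, rose in cDKO and had no call in G9a cKO. GKAQ controls had 246, 259.6 and 239 RPM, and cDKO had 487 and 548 RPM (1.06, SE 0.10, adjusted p = 2.52e-22). GKAO controls had 260.5, 272 and 319 RPM, and G9a cKO had 308, 317 and 329 RPM (0.17, SE 0.09, adjusted p = 0.23). The difference between the 2 effects was 0.89 (SE 0.14, adjusted p = 1.66e-07). Gm13103 rose by 0.54 in cDKO (SE 0.13, adjusted p = 0.0015), and its value was -0.07 in G9a cKO (SE 0.12, adjusted p = 0.715). Its cDKO call was lost without cDKO replicate 1 (0.42, adjusted p = 0.119), with the number in the sample title as a block (0.23, adjusted p = 0.426), against all 6 controls pooled (0.17, adjusted p = 0.801) and with neither trend nor robust fitting (adjusted p = 0.156), with a range of 0.000797 to 0.801 over 13 alternatives. Its GKAQ controls were 0.74 below its GKAO controls (SE 0.12, adjusted p = 5.76e-08). C87977, which lies beyond Oog2 on chromosome 4, rose by 0.48 in cDKO (SE 0.11, adjusted p = 0.000955) and was 0.32 higher without a call in G9a cKO (SE 0.10, adjusted p = 0.077). The other 4 called in cDKO were near the floor: Pramel7 had 4 and 2 reads in cDKO and none in the other 9 libraries, and Pramef25, Gm13083 and Gm13128 had at most 17 reads in a library. C87977 and these 4 fall outside the rule by which genes were named, and were picked after their values were seen.

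**Figure D4:**
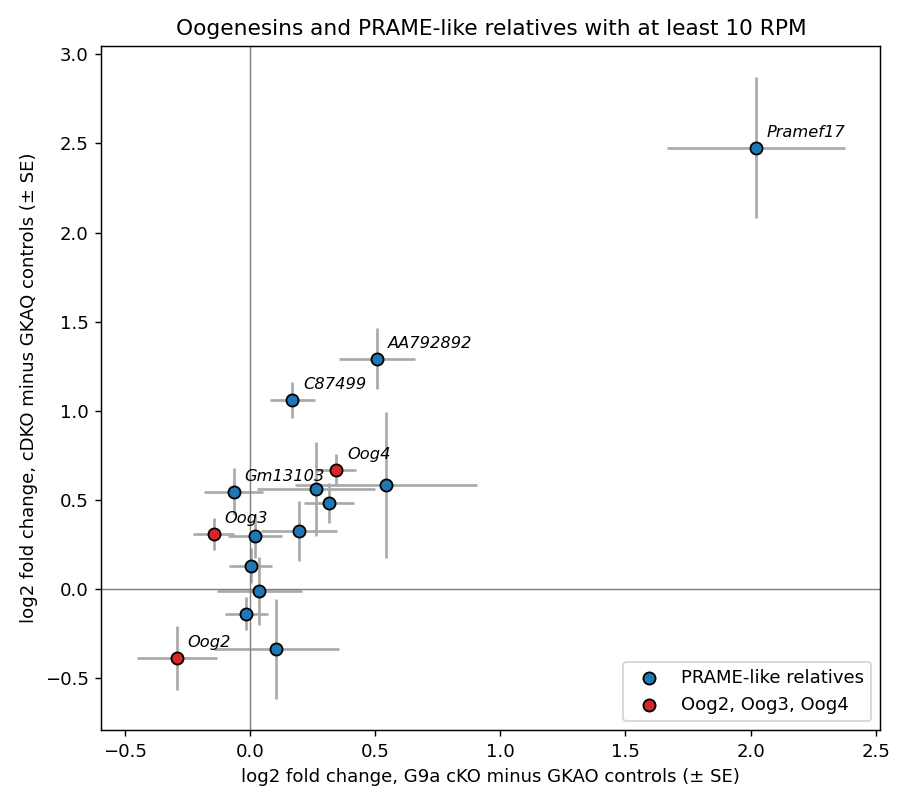
Log2 fold change in cDKO against GKAQ controls (y axis) and in G9a cKO against GKAO controls (x axis), with SE bars, for the 13 PRAME-like relatives (blue) and the 3 oogenesins (red) with a mean of at least 10 RPM. Oog4 lies among the relatives with positive values on both axes, and Oog2 is negative on both.

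The longest promoter word of the oogenesins was found in the windows of 13 genes. These include the 4 oogenesins and 3 PRAME-like genes, listed in RefSeq as Pramel23, Pramel26 and Pramel32 and in the RNA table as Gm13089, Gm13084 and C87499. The carriers did not all have a call in cDKO. The value was 1.06 for C87499, 0.67 for Oog4 and 0.31 for Oog3, all called, whereas Gm13089 had 0.32 (SE 0.17, adjusted p = 0.338), Gm13084 had -0.14 (SE 0.09, adjusted p = 0.565) and Oog2 had -0.39. Of the carriers 8 were measured, and 1 of these, Gm2042 on chromosome 12, had 0.16 (SE 0.15, adjusted p = 0.565).

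Relatives of the other members showed fewer calls. Of 10 oligoadenylate synthetase relatives 7 were measured and 2 had at least 10 RPM, and 0 were called in either mutant by limma (4 in G9a cKO, 3 of them lower, and 1 in cDKO at an unadjusted p under 0.05). Oas1h, a copy of the Oas1 cluster, differed by -0.29 in either mutant (SE 0.10 and adjusted p = 0.141 for G9a cKO, SE 0.11 and adjusted p = 0.115 for cDKO). Of 20 interferon-response genes, the context in which most oligoadenylate synthetases are known, 8 were measured, 2 had at least 10 RPM and 0 were called in either mutant by limma (3 in G9a cKO and 1 in cDKO, all lower, at an unadjusted p under 0.05). Among 4 names listed with Oosp1, 3 were measured and 1 was called, Plac1 in cDKO, with 0, 1 and 1 reads in GKAQ controls and 14 and 17 in cDKO. Plac1 is a relative best known from the placenta, and it too was picked after its values were seen.

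Among genes listed as other multicopy oocyte families the calls in G9a cKO were lower, and those in cDKO went both ways. Of 33 genes listed, 25 were measured, all with at least 10 RPM. In G9a cKO 6 were called lower and 0 higher, beside 0.737% of all loci called lower. Of loci at 10 RPM or more, 5.22% were called there in either direction. At an unadjusted p under 0.05 (limma) 10 were lower and 1 higher, and the median log2 difference of the 25 was -0.10. In cDKO 5 were called lower and 2 higher, beside 2.02% and 4.32% of all loci. Of loci at 10 RPM or more, 15.8% were called there in either direction. At an unadjusted p under 0.05 (limma) 5 were lower and 8 higher, and the median was 0.081. These counts move with the setting and the library: calls lower ranged from 0 to 6 over 14 alternatives in G9a cKO and from 0 to 5 over 13 in cDKO, and calls higher from 0 to 1 and from 0 to 3. Left out singly, GKAO control replicate 3 or G9a cKO replicate 1 gave 3 lower in G9a cKO, G9a cKO replicate 2 gave 1, and cDKO replicate 1 gave 2 lower in cDKO. Without any 1 GKAQ control, or without cDKO replicate 2, 1 was higher in cDKO. Btg4 and Spin1 are on the list with no other copy of either, so their calls are not those of a multicopy family. Among the calls lower were Btg4 in both mutants (-0.33 in G9a cKO and -0.37 in cDKO) and Spin1 in cDKO (-0.24). Both fall outside the rule by which genes were named.

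Nlrp4e, of the family of maternal-effect NLR proteins, fell by 0.72 in cDKO (SE 0.17, adjusted p = 0.00149). With the title number as a block it was -0.31 and not called (adjusted p = 0.422), and without cDKO replicate 1 it was -0.54 and not called (adjusted p = 0.134). Rfpl4, a RING-finger gene of oocytes, fell by 0.46 in G9a cKO (SE 0.08, adjusted p = 1.63e-05). It was -0.32 and not called without G9a cKO replicate 2 (adjusted p = 0.0551), and was not called with precision weights (adjusted p = 0.138). Tcl1b2 fell by 0.46 in G9a cKO (SE 0.12, adjusted p = 0.0162) and was not called without GKAO control replicate 3 (-0.40) or G9a cKO replicate 1 (-0.47) or 2 (-0.41), nor against all 6 controls pooled (-0.40, adjusted p = 0.0559).

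E330034G19Rik, a locus of oocyte transcripts, was lower in both mutants than in their own controls. It measured 1374, 1497 and 1719 RPM in GKAO controls and 1203, 1131 and 1327 RPM in G9a cKO, with no overlap (-0.32, SE 0.05, adjusted p = 1.42e-08). In GKAQ controls it measured 2315, 2148 and 2142 RPM, and in cDKO 1573 and 1749 RPM, again with no overlap (-0.41, SE 0.05, adjusted p = 1.16e-11). The 2 control groups differ by 0.53 (SE 0.05, adjusted p = 3.64e-25). Against all 6 controls pooled neither mutant was called, with -0.59 in G9a cKO (adjusted p = 0.188) and -0.14 in cDKO (adjusted p = 0.874). The G9a cKO call was also lost with precision weights (adjusted p = 0.0922). With neither trend nor robust fitting none of these 4 genes was called in the mutant named (adjusted p = 0.112 for Nlrp4e, 0.279 for Rfpl4, 0.219 for Tcl1b2, and 0.279 and 0.278 for E330034G19Rik in G9a cKO and cDKO).

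Over the 11 libraries, the genes most like each family's summed RNA were listed by Pearson's r of log2 RPM among 6931 named loci of at least 10 RPM. For the oogenesins they were Zfp420 (r = 0.945), Gabrg3 (0.941) and Nrg1 (0.939). For Oas1 they were Reep5 (r = 0.982), Fbxw20 (0.973) and Scap (0.970), and for Oosp1 they were Vps53 (r = 0.984), Nuf2 (0.975) and E2f5 (0.973). For the Omt2 pair they were Polr2b (r = 0.963), Capza2 (0.896) and Oas1h (0.896). Points share library depth and the contrast of the 2 series, so these are descriptions of 11 libraries. Vps53 shows the pattern behind the value for Oosp1, with means of 94.3, 79.7, 42.5 and 55.1 RPM in GKAO controls, G9a cKO, GKAQ controls and cDKO, where Oosp1 had 761, 649, 406 and 506 RPM.

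H3K9me2, the mark that G9A and GLP place, was read in the 23 windows of 10 kb that overlap the 10 loci. None of the 23 was called in G9a cKO or in cDKO, where 1.85% and 0% of 255057 windows were called (limma, all windows with a read). Both mutants were compared with the same 2 control libraries. Of the 23, an unadjusted p under 0.05 was found for 7 windows in G9a cKO and 4 in cDKO, beside 48990 (19.2%) and 22952 (9.0%) of all windows. Depth limits this reading: control windows held 11 to 96 reads and mutant windows 0 to 21. In controls the windows ranked between percentiles 3.41 and 84.4 of all windows, with a median of 42.4. The loci as a whole were thus not at the high end of H3K9me2 reads per window. These values were not corrected for input, and how reads that match several copies were placed is not given in the sources used here. The part of either in the ranks was not tested. The Oog1 locus had the lowest values, with 1.92 and 1.78 RPM per window in the 2 controls. G9a cKO had 1.08 and 0.451 there and cDKO 0.58 and 0.797, where the median of all windows was 3.97 and 4.03 in the controls. The mutant values rest on 4 and 1 reads in G9a cKO and 2 and 3 in cDKO. The locus ends at base 87610278, so most of its window chr12:87610001-87620000 lies outside it.

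Windows of different members had differences of either sign. At the Oog3 locus (7040 bases, chr4:144155823-144162862, minus strand) the mean per window was 3.33 and 3.53 RPM in controls. G9a cKO had 1.08 and 1.35 and cDKO 3.77 and 3.45. The G9a cKO values rest on 4 and 3 reads. Its window chr4:144160001-144170000, which holds the promoter shown above, had a log2 difference of -1.65 for G9a cKO (SE 0.57, adjusted p = 0.155). For cDKO it was -0.28 (SE 0.57, adjusted p = 0.91). Oog3 RNA was not called in G9a cKO. At the Oog4 locus (13356 bases, chr4:143437164-143450519, minus strand) controls had 3.69 and 3.68 RPM per window, G9a cKO 5.38 and 3.31 and cDKO 4.64 and 4.96. The 2 controls thus lie between the 2 G9a cKO libraries and below both cDKO libraries, at the locus whose RNA rose in both mutants.

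At the Oas1c locus (chr5:120800194-120812568, minus strand) the window chr5:120810001-120820000, over the start of the gene, had higher values in both mutants. It measured 2.41 and 4.39 RPM in controls. In the G9a cKO libraries it measured 7.54 and 8.11, and in the cDKO libraries 6.96 and 11.2 (1.26, SE 0.38, adjusted p = 0.115, and 1.44, SE 0.38, adjusted p = 0.277). Where windows without a read in any library were tested too, the log2 differences were the same and both passed (limma, adjusted p = 0.0447 and 0.0293). Values of such windows depend only on depth. With them, 32053 windows were called in G9a cKO and 20532 in cDKO, beside 4730 and 0 as reported, so this setting is no further support. No other of the 7 alternatives gave a call. The groups do not overlap, and Oas1c RNA showed no called change. Most of this window lies outside the Oas1c locus and over that of Oas1b (chr5:120812635-120824158). The mark over the 2 genes cannot be told apart there. Oas1b RNA had a mean of 6.36 RPM and was not called in either mutant. Its log2 differences were -1.35 in G9a cKO (SE 0.47) and -0.83 in cDKO (SE 0.52). An internal window of Oosp1 (chr19:11670001-11680000, of a locus at chr19:11667460-11691636 on the minus strand) measured 2.98 and 3.03 RPM in controls. With 10.8 and 6.31 for G9a cKO and 8.12 and 4.25 for cDKO, it gave the lowest adjusted p in G9a cKO (1.46, SE 0.42, adjusted p = 0.0996). Of 7 alternatives it passed only with windows without a read tested too (limma, adjusted p = 0.0332), under the limit just given. At Omt2b (chr9:78327382-78333007, plus strand) controls had 4.47 and 4.23 RPM per window, G9a cKO 2.42 and 3.16 and cDKO 3.77 and 1.33, all mutant libraries below the controls. Of the 23 windows 15 had a negative difference in G9a cKO and 12 in cDKO, beside 60.3% and 55.9% of all windows. The median log2 difference of the 23 was -0.23 and -0.15, beside -0.22 and -0.094 over all windows.

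**Figure D5:**
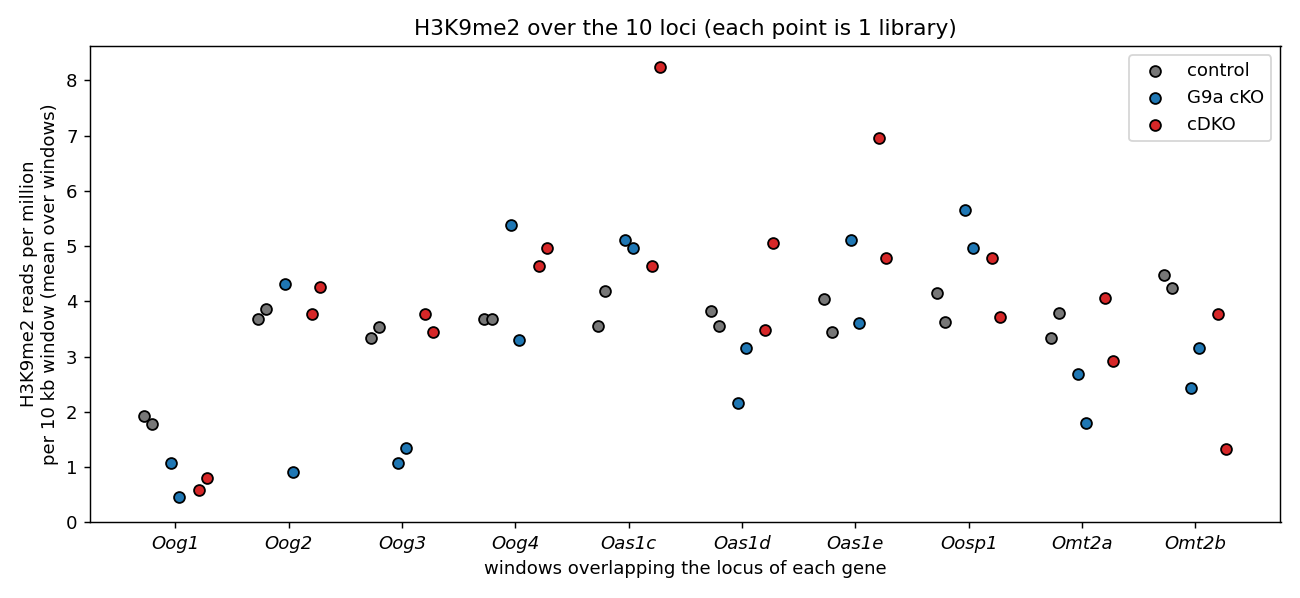
Mean H3K9me2 RPM per 10 kb window (y axis, from 0) over the windows that overlap each gene (x axis), with 1 point for each of 2 control, 2 G9a cKO and 2 cDKO libraries. Oog1 has the lowest values, and both G9a cKO libraries of Oog3 lie near 1 RPM against more than 3 in controls.

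The remaining loci lie at chr12:87602688-87610278 (Oog1, plus strand), chr4:144183291-144199594 (Oog2, plus), chr5:120914402-120921652 (Oas1d, plus), chr5:120780343-120796191 (Oas1e, minus) and chr9:78308285-78314797 (Omt2a, minus), all in GRCm38. Each is the span of a transcript locus in the authors' table, introns included. Of the 10 loci 2 are overlapped by a locus on the other strand: Oas1e by loci of 728 and 561 bases with at most 9 reads in a library, and Omt2b by a Gsta2 locus over 2166 bases with at most 11 reads. Of the other genes named above, Pramef17, C87499, Oas1b, Oas1h, Tcl1b2, Rfpl4, Btg4, Spin1 and E330034G19Rik also lie over a locus on the other strand. Whether counting used strand is not given in the sources used here, so reads of such partners cannot be told apart from the members' own.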

How the data were processed

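Low-input RNA-seq (11 libraries) and H3K9me2 chromatin immunoprecipitation (6 libraries) were used, and the bisulphite, input and IgG samples were not analysed here. The authors deposited both tables as log2 values with 1 column per library. Neither file headers nor labels name the unit. In every library 100% of values were log2 of RPM, whole reads (within 0.02 read) scaled to 1000000 per library, with loci without reads set to the value of 0.9 read, and reads were recovered on that basis. Per the submitters' processing notes, Trim Galore, Bowtie2, HISAT2 2.1.0, Bismark 0.19.0 and GRCm38 were used, with no role given. The totals of that scaling, derived from the values, were 1458868 to 2399680 reads for RNA libraries and 1109191 to 19128881 for H3K9me2 libraries. Recovered reads summed to 1506225 to 2477440 over all RNA loci and to 1121508 to 19430097 over all H3K9me2 windows. A further 4 columns that match no sample were not used.

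Groups came from the genotype label and title prefix. The deposited log2 values were fitted with limma 3.58.1 (R 4.3.3, trend and robust, two-sided) as 1 mean per group over all 11 RNA libraries, or the 6 H3K9me2 libraries and windows with a read, with Benjamini-Hochberg adjustment over all 38540 loci or 255057 windows. The fitted values use log2 of RPM and so depend, for loci without reads, on the 0.9 read. RNA loci without a read in any library were kept in the adjustment, and their values differ by depth alone. They share adjusted p-values (limma) of 0.23 in G9a cKO and 0.169 for the difference of effects, which recur among the genes above. The script was tested on simulated data. Members and gene lists were chosen with earlier results of these data known, so no pattern is independent support. The named genes are all members, at most 4 called genes of each list with a mean of at least 10 RPM and the largest change, and the 3 genes most like each family. Levels were not compared between genes per length, since the files give genomic spans and no transcript lengths, and shares within a family are shares of reads. Alternatives were other scaling, filters, moderation, weights, controls, the title number and leaving out each library. Promoters come from RefSeq (GRCm38.p6) and were aligned with Biopython 1.88.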

Additional observations from a re-analysis of the deposited data

Results flagged for a closer look

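The effects of the 2 genotypes differed for 2 of the 10 genes by the test of the difference itself (limma, adjusted over all loci). For Oosp1 the cDKO effect was 0.55 above the G9a cKO effect on the log2 scale (adjusted p = 0.000239): the fitted value was 0.32 in cDKO and -0.23, without a call, in G9a cKO. For Oog3 the difference was 0.45 (adjusted p = 0.0258), from 0.31 in cDKO and -0.15 in G9a cKO. The call for Oosp1 was lost with precision weights (adjusted p = 0.211) and with neither trend nor robust fitting (adjusted p = 0.232). The call for Oog3 was lost in 10 of 16 alternatives. Each effect was measured against a control group of its own, and for Oosp1 those controls differ by -0.90. The part of that difference in the result was not tested.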

How the results depend on the processing

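The limits of these values are few libraries (2 cDKO pools and 2 H3K9me2 libraries per group), shallow H3K9me2 libraries for the mutants, near-identical copies, and control groups that differ. The planned edgeR test was not run, because the deposited unit is log2. The number in the title is shared by some controls and mutants, and the labels do not say what it marks. Over loci at 10 RPM or more, deviations from the group means correlated at 0.011 to 0.11 for the 4 same-numbered pairs of GKAO libraries. The 5 other GKAO pairs had -0.12 to 0.0027, below every same-numbered pair. The only same-numbered GKAQ pair, on which the blocked cDKO value rests, had 0.00035, and the 5 others -0.0011 to 0.0011. Deviations of 2 cDKO libraries mirror each other, so the GKAQ values cannot show whether a shared number matters. The main fit does not use the number, and the fit with it as a replicate block is 1 of the alternatives. Where a value below changed, the cause was not tested unless the setting tests fewer features or samples.

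Members called in G9a cKO (1 as reported) numbered 2 after centring on detected loci, in a fit of only the groups compared and with the title number as a block, and 0 with no trend and no robust fitting. Of all loci 1.79% were called, which became 0.464% with no trend, 1.13% with precision weights and 3.11% with all controls pooled. Members called in cDKO (3) numbered 1 after centring, with no trend and with precision weights, and the share of loci (6.34%) was 2.99% with no trend and 2.52% with the title number. For the difference of effects, members called (2) numbered 1 after centring and with detected loci only, and 0 with no trend and with precision weights, while the share of loci (1.08%) was 0.213% and 0.501% in those last settings. Between controls, members called (3) numbered 5 with detected loci only and 0 with no trend, where the share of loci was 0.283% (3.87% as reported). PRAME-like relatives called higher in G9a cKO (2) numbered 1 after centring, with precision weights and with only the groups compared, and 0 with no trend. In cDKO (9) they numbered 5 with detected loci only and with the title number. For H3K9me2, testing all windows called 2 member windows and 32053 windows in G9a cKO and 1 and 20532 in cDKO. The windows added there have no reads, and their values are set only by depth. Windows with at least 10 reads gave 1695 in G9a cKO, and centring gave 8144 (4730 as reported).

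Directions turned for values near 0 or with other controls. With all controls pooled, G9a cKO values were 0.071 for Oas1c, 0.030 for Oas1d, 0.28 for Oas1e, 0.22 for Oosp1 and 0.30 for Gm13103, and cDKO values were -0.13 for Oosp1 and 0.00797 for Omt2a. With the title number, Oog1 in G9a cKO was 0.089, and in cDKO Omt2a was 0.035 and Omt2b 0.11. Precision weights gave 0.00329 for Oog1 in G9a cKO, and centring gave -0.044 for the difference of Oas1c.

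Leaving out 1 library at a time, where the remaining library of a pair is assumed to vary like the other groups, members called ranged from 1 to 2 in G9a cKO, from 1 to 3 in cDKO and from 1 to 2 for the difference. The share of loci called ranged from 0.983% (without G9a cKO replicate 2) to 1.502%, from 4.05% (without cDKO replicate 1) to 4.99%, and from 0.719% (without GKAQ control replicate 3) to 38.2% (without GKAQ control replicate 1). The 38.2% was 14705 loci, 14162 of them with a larger effect in cDKO. Loci without a read in any library are among those tested, with values set only by depth. In the main fit Hba-a1, such a locus, had a difference of 0.52 (limma, adjusted p = 0.169). The part of such loci in the 38.2% was not tested. PRAME-like relatives called higher in G9a cKO ranged from 1 to 2. H3K9me2 member windows called in G9a cKO ranged from 0 to 2, all windows from 0 (without G9a cKO replicate 2) to 13627 (without G9a cKO replicate 1), and in cDKO from 0 to 1443 (without control replicate 1). Values that turned ranged, in G9a cKO, from -0.25 to 0.28 for Oog1, -0.065 to 0.0097 for Oas1c and -0.044 to 0.025 for Oas1d. In cDKO they ranged from -0.035 to 0.027 for Oas1c, -0.37 to 0.18 for Omt2a and -0.33 to 0.015 for Omt2b. For the difference they ranged from -0.17 to 0.038 for Oog2, -0.015 to 0.059 for Oas1c and -0.11 to 0.036 for Oas1e.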
